A study of Mus musculus with 28 samples.

Results

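The transcripts described here encode 9 proteins of fatty acid oxidation in peroxisomes: the importer Abcd3, the oxidase Acox2, the bifunctional enzymes Ehhadh and Hsd17b4, the thiolases Acaa1a, Acaa1b and Scp2, the carnitine octanoyltransferase Crot and the dienoyl-CoA reductase Decr2. They were taken by symbol from a table of 49585 features counted in mouse liver, of which 21583 were expressed. All 9 were found and all 9 passed the filter for expressed genes, a mean normalised count of at least 0.5.

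Peroxisomes shorten fatty acids that mitochondria handle poorly, such as very long chain, branched and dicarboxylic acids and the side chains of bile acid precursors. Each round runs through an oxidase that makes hydrogen peroxide, a bifunctional enzyme that hydrates and dehydrogenates, and a thiolase that releases acetyl-CoA or propionyl-CoA. Shortened chains can leave as carnitine esters for further oxidation in mitochondria. In rodent liver many genes of this pathway are targets of PPARα, the nuclear receptor that responds to fatty acids and fasting.

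The livers came from C57BL/6JOlaHsd mice aged 5 to 7 months that had been fasted for a few hours, 7 in each of 4 groups: males and females, each either wild type (WT) or SIRT6-tg. SIRT6-tg mice carry a transgene for SIRT6, a deacylase that uses NAD+, and per the methods all come from 1 transgenic line whose WT littermates served as controls. Nothing in the sources used here gives litters or days for these libraries. Each library is 1 mouse liver, so less RNA per hepatocyte and fewer hepatocytes in the sample cannot be told apart.

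The libraries held 18758863 to 35393069 counts, and the 9 genes together took 0.355 to 0.673% of them. Their counts per library lay between 2247 and 84790, so counting error was small beside the spread between mice. Levels are given as CPM, in which each count is divided by the TMM-scaled total of its library. Sirt6 reached 198 to 358 CPM in male SIRT6-tg and 1.69 to 3.24 CPM in male WT mice, against 16.4 to 50.2 and 1.80 to 6.22 CPM in females, so every library matched its genotype label. The 15 secreted hepatocyte proteins of a marker list summed to between 126608 and 243887 CPM, and no listed marker of hepatocytes was at 0. The library of male WT replicate 6 correlated least with the mean of the other libraries of its group (r = 0.982 on log2 CPM). It was the lowest of the 7 for 7 of the 9 genes.

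Acaa1a and Acaa1b, both on chromosome 9 of GRCm38, needed a check before their counts were read. Acaa1a lies at chr9:119339676-119350299 on the forward strand and Acaa1b at chr9:119148023-119157093 on the reverse strand, 182583 bases apart. Their coding sequences, 1272 bases each without the stop codon, align without gaps and are identical at 1228 positions (96.5%). The first 120 coding bases, at chr9:119341515-119341634 in Acaa1a and chr9:119156875-119156994 in Acaa1b, are shown to let the reader see how alike the pair is, with the 4 bases that differ in capitals.
Acaa1a: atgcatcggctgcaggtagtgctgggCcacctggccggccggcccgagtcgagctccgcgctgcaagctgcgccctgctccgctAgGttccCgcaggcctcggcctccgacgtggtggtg
Acaa1b: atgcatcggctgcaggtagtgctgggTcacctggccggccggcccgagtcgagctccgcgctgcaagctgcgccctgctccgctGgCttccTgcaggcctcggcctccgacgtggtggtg

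The 90 coding bases that differ most, bases 460 to 549, are split by an intron in both genes and hold 13 differences, again in capitals. They are shown because reads from such stretches can be placed on 1 gene only.
Acaa1a: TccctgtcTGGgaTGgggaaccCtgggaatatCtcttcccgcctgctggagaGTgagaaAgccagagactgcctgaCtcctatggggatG
Acaa1b: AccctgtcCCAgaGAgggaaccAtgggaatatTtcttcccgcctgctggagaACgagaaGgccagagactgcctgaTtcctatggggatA

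The longest run without a difference was 327 bases, and 37.9% of the 50-base windows of one coding sequence occurred unchanged in the other. The authors counted uniquely mapped reads only, so reads that lay wholly inside such shared sequence were lost from both genes. The window of 50 bases was set here. Longer reads can span a difference, so the share of reads lost may differ from the share of windows. Over the whole main transcript, 35.1% of the 50-base windows of Acaa1a and 46.2% of those of Acaa1b also occurred in a transcript of another gene. For Scp2 this share was 41.4%, through the copies Scp2-ps2 and Gm47162. It was 3.97% for Crot, 2.94% for Decr2 and 0 for Abcd3, Acox2, Ehhadh and Hsd17b4. Other genes overlap 290 exon bases of Acaa1a (Myd88, opposite strand), 224 of Acaa1b (Dlec1, opposite strand) and 166 of Crot (Gm37153, opposite strand, and Gm27941, same strand). The strand setting of the counting is not stated, so reads there could belong to either partner. The levels of Acaa1a, Acaa1b and Scp2 are therefore uncertain, while the shared windows are the same in every library.

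The 250 bases before the RefSeq start (GRCm38.p6) are printed with the motif CCAAT, searched on both strands, in capitals, to show the start regions of the pair that shares so much coding sequence. They lie at chr9:119341044-119341293 on the forward strand for Acaa1a and at chr9:119157094-119157343 on the reverse strand for Acaa1b.
Acaa1a: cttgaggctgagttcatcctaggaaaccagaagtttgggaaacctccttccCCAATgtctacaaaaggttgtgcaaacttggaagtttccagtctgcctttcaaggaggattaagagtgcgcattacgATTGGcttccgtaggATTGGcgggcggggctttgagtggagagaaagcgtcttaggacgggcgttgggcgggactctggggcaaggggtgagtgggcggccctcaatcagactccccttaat
Acaa1b: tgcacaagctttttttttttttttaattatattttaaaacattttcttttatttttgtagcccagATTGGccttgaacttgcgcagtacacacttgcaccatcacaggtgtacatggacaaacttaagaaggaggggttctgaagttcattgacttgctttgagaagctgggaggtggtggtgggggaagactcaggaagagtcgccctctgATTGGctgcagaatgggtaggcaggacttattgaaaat

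Promoter windows of 300 bases (250 before to 50 after the start) were searched for 10 RefSeq starts of 8 of the genes, Abcd3 and Acox2 having 2 starts each. CCAAT was present in 5 of the 10 and in 37.4% of all 32851 windows, and GGGCGG in 5 of the 10 and in 35.7% of all. AGGTCA, a core site of many nuclear receptors, was present in 1, that of Scp2, against 16.3% of all. The DR1 repeat of that site, AGGNCA followed after 1 base by AGGNCA, which contains AGGTCA where its inner N is T, was in none of the 10 and in 0.381% of all, and TATAAA was in none and in 13.6% of all. A match describes letters in this window only.

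Levels were compared between genes per kilobase of the main transcript (RPKM). Counts were per gene, so that of Scp2 pools its thiolase with the lipid carrier made from a second start. In male WT livers Scp2 was the highest at 766 ± 126 RPKM (SD, n = 7) and Acox2 the lowest at 41.2 ± 2.68 RPKM, and each stood clear of its neighbour in the order. From Acaa1b (268 ± 68.2 RPKM) through Crot, Hsd17b4, Abcd3, Acaa1a and Decr2 down to Ehhadh (82.1 ± 13.0 RPKM), each gene overlapped the next. In female WT livers Scp2 (406 ± 76.4 RPKM) overlapped the second, Crot (320.4 ± 84.7 RPKM), and Ehhadh stood sixth instead of eighth. Acox2 was again the lowest in females, at 44.3 ± 7.93 RPKM in WT and 47.3 ± 6.57 RPKM in SIRT6-tg, clear of Acaa1a above it.

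To find whether the genotype moved these genes in males, SIRT6-tg and WT males were compared in a fit over all expressed genes. Of the 9 genes, 4 rose in male SIRT6-tg livers and 0 fell, while 9.68% of all expressed genes were called higher and 11.0% lower in this comparison. The 4 were Acaa1b, Acox2, Scp2 and Hsd17b4, with fold changes of 1.86, 1.37, 1.33 and 1.32. The log2 fold change was above 0 for all 9, as for 55.2% of all expressed genes, with a median of 0.38 against 0.06 over all genes. Unadjusted p was under 0.05 for 7 of the 9 and for 32.6% of all expressed genes.

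In female livers 0 of the 9 were called in edgeR's quasi-likelihood test, against 0.0232% of expressed genes called higher and 0.00463% called lower, and 0 with DESeq2. All 9 log2 fold changes were above 0, where 50.5% of all expressed genes were, and their median was 0.26. Of the 9, 4 had an unadjusted p under 0.05 (Acaa1b, Abcd3, Crot and Decr2), against 5.62% of all genes, and the lowest Benjamini-Hochberg adjusted p in edgeR was 0.696. All 10 T cell and all 12 macrophage markers lay below 0 in the same comparison, uncalled, and their part in it was not tested. The genotype effect in males minus that in females was called for 0 of the 9, where 1.20% of expressed genes were called higher and 3.84% lower. That difference had an unadjusted p under 0.05 for 4 of the 9 (Acox2, Scp2, Hsd17b4 and Acaa1b) and for 18.8% of all genes, with a lowest adjusted p of 0.156 in edgeR, and DESeq2 called 0. A different response of the sexes was thus not shown for any of them. Sirt6 was at 198 to 358 CPM in male and 16.4 to 50.2 CPM in female SIRT6-tg livers. Sex and Sirt6 level therefore cannot be told apart in this difference, for these or other genes.

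The number of male calls depended on the scaling of the libraries. TMM factors were 1.06 to 1.17 in male WT and 0.821 to 0.993 in male SIRT6-tg libraries. With library size alone, or with libraries scaled to the secreted hepatocyte proteins, only Acaa1b of the 9 remained called, at log2 fold changes of 0.62 and 0.55, and Crot and Decr2 turned to −0.09 and −0.06, and to −0.17 and −0.12. Of the 21583 expressed genes, 210 and 119 were called higher with these scalings, against 2090 with TMM. The median of all genes itself moved from 0.06 with TMM to −0.22 and −0.28. As a share of all calls, those called higher went from 46.8% to 4.89% and 3.11%. A change of scaling moves all genes by nearly the same amount, so it leaves the place of the 9 among them nearly fixed. The median of the 9 genes stood 0.32 above the median of all genes with TMM, with library size alone and with hepatocyte scaling. All 9 lay above the median of all genes in each, and these values do not show that the rise holds under every scaling.

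**Figure D1:**
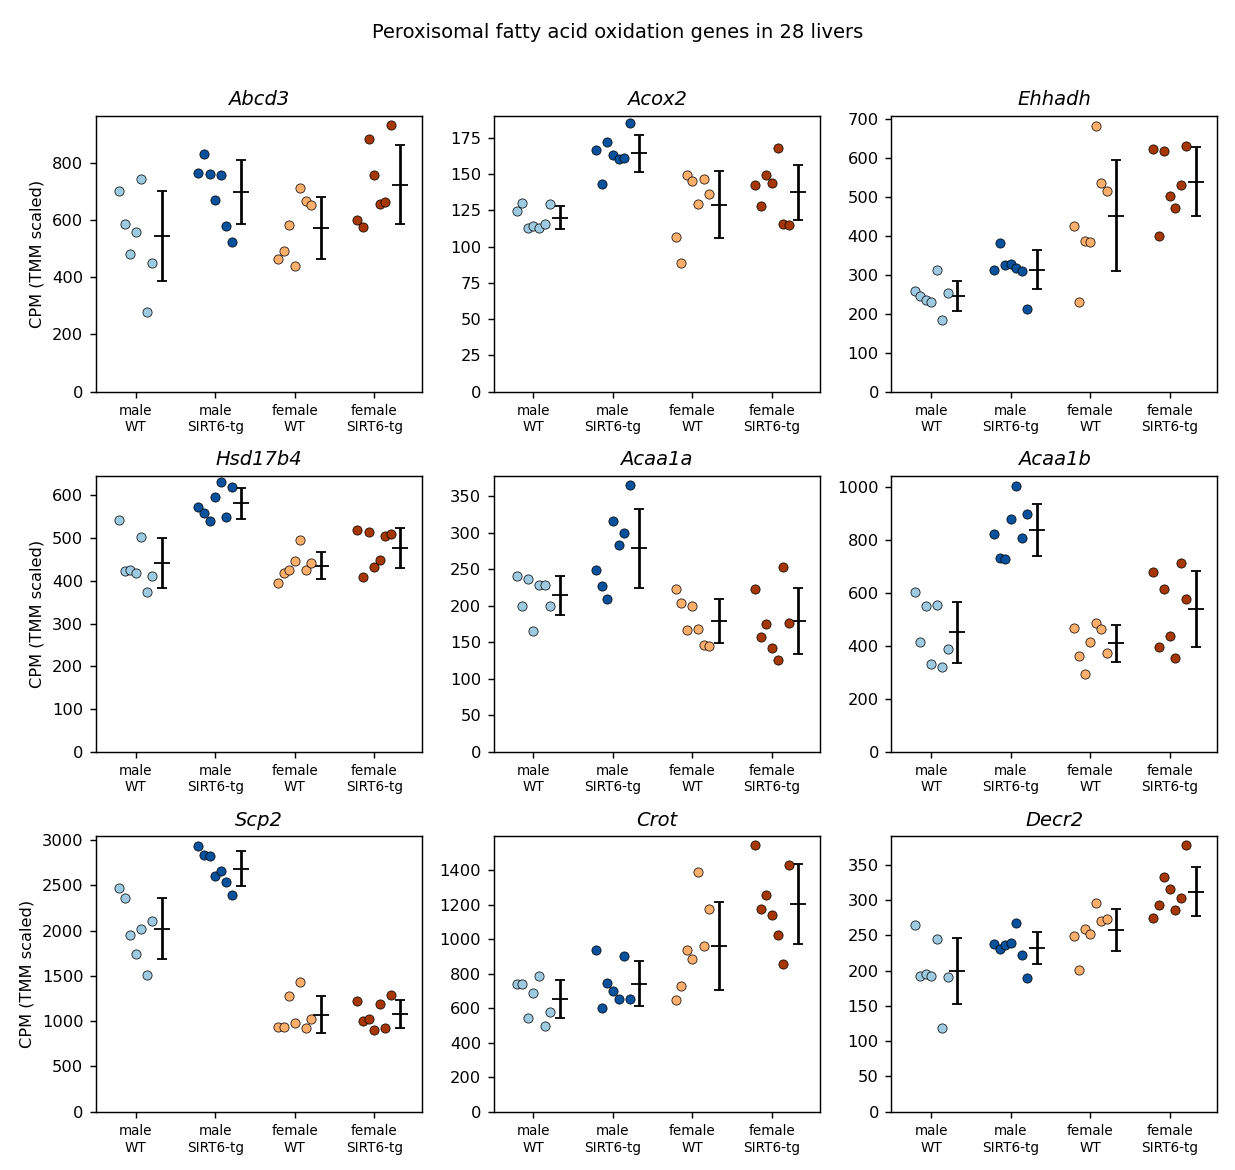
Level of each of the 9 genes in 28 livers, in CPM after TMM scaling on axes that start at 0; each point is 1 mouse, and the bar beside each group gives mean ± SD (n = 7). Acox2 and Acaa1b separate male SIRT6-tg from male WT mice without overlap, and Scp2 separates the sexes in both genotypes. How many of all expressed genes separate in the same way was not computed.

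**Figure D2:**
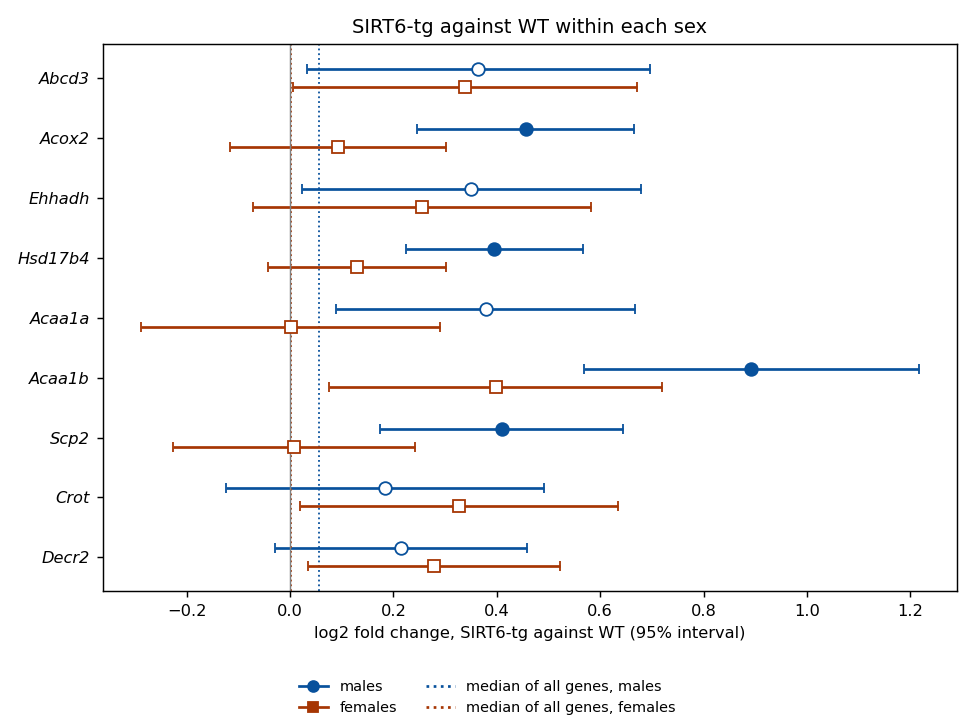
Log2 fold change of SIRT6-tg against WT with its 95% interval for the 9 genes in males (circles) and females (squares); filled symbols passed an adjusted p of 0.05, and dotted lines mark the median of all expressed genes. The 4 filled symbols are all from males, with Acaa1b at 0.89, and all points lie at or right of 0.

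Abcd3, also called PMP70, is an ABC transporter that brings long and branched acyl-CoAs and bile acid precursors into the peroxisome; its gene lies at chr3:121758774-121815302 on the reverse strand. In males it ranged from 279 to 743 CPM in WT (median 558) and from 523 to 832 CPM in SIRT6-tg (median 759). WT replicate 6 was the lowest library, and 4 of the 7 SIRT6-tg values lay above every WT value. Female WT values ranged from 439 to 714 CPM (median 583) and female SIRT6-tg values from 578 to 932 CPM (median 662), with wide overlap. SIRT6-tg against WT gave a log2 fold change of 0.36 in males (SE 0.16, edgeR adjusted p = 0.114) and 0.34 in females (SE 0.16, adjusted p = 0.869), neither called. The male difference passed in 1 of 28 fits that left out 1 library, that without male WT replicate 5, the highest of its group (edgeR adjusted p = 0.0487). Over the 28 fits the adjusted p reached 0.279.

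Acox2 is the oxidase that opens the cycle for branched chains and bile acid side chains; its gene lies at chr14:8225511-8259353 on the reverse strand. Male WT livers gave 113 to 129.9 CPM (median 116) and male SIRT6-tg livers 143 to 185 CPM (median 163). The groups did not overlap, and no other member varied as little among male WT mice, with a coefficient of variation of 6.51%. Females covered 88.6 to 149 CPM in WT (median 137) and 115 to 168 CPM in SIRT6-tg (median 142), largely the same range. Expressed as a log2 fold change, the difference was 0.46 in males (SE 0.10, edgeR adjusted p = 0.00157) and 0.09 in females (95% interval −0.12 to 0.30). With library size alone the male value was 0.17 (adjusted p = 0.338) and with hepatocyte scaling 0.10 (adjusted p = 0.725).

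Ehhadh, the L-bifunctional enzyme, acts on straight and dicarboxylic chains and is a classical PPARα target; its gene lies at chr16:21761287-21787807 on the reverse strand. Male WT values were 183 to 313 CPM (median 244) and male SIRT6-tg values 213 to 382 CPM (median 316). The lowest SIRT6-tg library, replicate 7, fell among the WT values, and 4 of the 7 lay above all of them. Females were higher and more scattered, with 230.5 to 682 CPM in WT (median 425) and 398 to 630.2 CPM in SIRT6-tg (median 529). The log2 fold change of 0.35 in males (SE 0.16, edgeR adjusted p = 0.124) and that of 0.26 in females (95% interval −0.07 to 0.58) were not called.

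Hsd17b4, the D-bifunctional enzyme that serves very long, branched and bile acid chains, lies at chr18:50128201-50196269 on the forward strand. Male WT livers ranged from 374 to 542 CPM (median 423) and male SIRT6-tg livers from 539.5 to 632 CPM (median 574). All but 1 SIRT6-tg library lay above every WT library, and the exception was exceeded by WT replicate 1 alone. Female WT values were 396 to 496 CPM (median 426) and female SIRT6-tg values 408 to 519.9 CPM (median 505), in which 4 of the 7 lay above all WT values. In edgeR the log2 fold change came to 0.40 in males (SE 0.08, edgeR adjusted p = 8.85e-04) and 0.13 in females (95% interval −0.04 to 0.30). With library size alone it was 0.12 in males (adjusted p = 0.351) and with hepatocyte scaling 0.05 (adjusted p = 0.854).

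Acaa1a is a thiolase of straight chains. In males it ranged from 165 to 241 CPM in WT (median 228) and from 209 to 365 CPM in SIRT6-tg (median 282). SIRT6-tg values spread widely, 5 of the 7 above every WT value and 2 among them. Female values were 144 to 223 CPM in WT (median 168) and 125 to 253 CPM in SIRT6-tg (median 175), with SIRT6-tg libraries on both sides of the WT range. On the log2 scale the difference was 0.38 in males (SE 0.14, edgeR adjusted p = 0.0554), just outside the threshold, and 0.001 in females (95% interval −0.29 to 0.29). The male difference passed in 4 of 28 fits that left out 1 library, those without male SIRT6-tg replicate 2 (the lowest adjusted p over all 28 was 0.0283), male SIRT6-tg replicate 3, female SIRT6-tg replicate 5 or female SIRT6-tg replicate 6.

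Acaa1b, the thiolase known for its strong induction by PPARα ligands, had the widest male difference of the 9. Male WT livers ranged from 321 to 603 CPM (median 415) and male SIRT6-tg livers from 730.2 to 1006 CPM (median 822). Every SIRT6-tg library lay above every WT library. In females WT livers gave 295 to 487 CPM (median 414) and SIRT6-tg livers 353 to 712 CPM (median 578), with 4 of the 7 SIRT6-tg values above all WT values and 3 among them. The log2 fold change was 0.89 in males (SE 0.16, edgeR adjusted p = 1.03e-04) and 0.40 in females (SE 0.16, adjusted p = 0.696). The difference between the sexes was 0.49 with a 95% interval of 0.04 to 0.95 (adjusted p = 0.221).

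Because both thiolases share sequence, their counts were also summed into 1 row. The sum rose in males by 0.75 on the log2 scale (edgeR adjusted p = 2.58e-04) and was 0.29 higher in female SIRT6-tg livers without passing (adjusted p = 0.892). The share of Acaa1b in the sum, looked at after its values were seen and not tested, had a median of 67.5% in male WT (58.5 to 71.4%) and 76.3% in male SIRT6-tg mice (71.1 to 78.1%). In females the medians were 67.6% in WT (64.0 to 76.1%) and 75.3% in SIRT6-tg mice (71.5 to 77.9%). WT and SIRT6-tg ranges overlapped in both sexes.

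**Figure D3:**
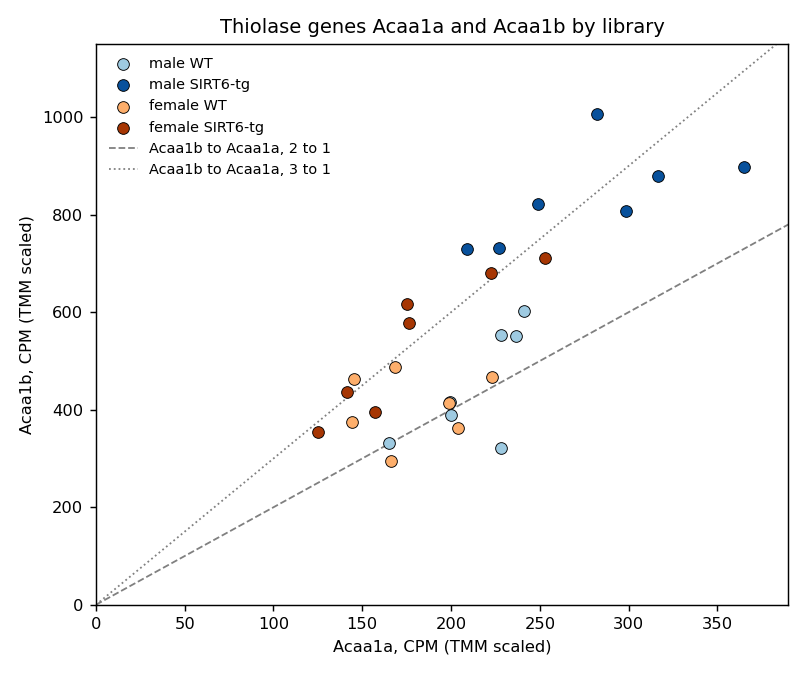
Level of Acaa1b against that of Acaa1a in each of 28 livers, both in CPM after TMM scaling, coloured by group, with grey lines at 2 and 3 counts of Acaa1b for each count of Acaa1a. All 7 male SIRT6-tg livers lie at 730.2 CPM or higher on the Acaa1b axis, above every library of the other groups.

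Scp2 encodes the sterol carrier protein X, a thiolase of branched chains and bile acid precursors, and from a second start the lipid carrier SCP2; its gene lies at chr4:108043839-108144998 on the reverse strand. Male WT livers held 1512 to 2469.8 CPM (median 2012) and male SIRT6-tg livers 2387 to 2937 CPM (median 2658). Only SIRT6-tg replicate 7 fell within the WT range, below WT replicate 1. Counts were per gene, so neither this level nor any difference in Scp2 between groups can be assigned to the thiolase alone. Female WT livers ranged from 925 to 1432 CPM (median 979) and female SIRT6-tg livers from 898 to 1289 CPM (median 1024), with no visible separation. SIRT6-tg against WT gave a log2 fold change of 0.41 in males (SE 0.12, edgeR adjusted p = 0.0105) and 0.01 in females (95% interval −0.23 to 0.24). With library size alone it was 0.13 in males (adjusted p = 0.488) and with hepatocyte scaling 0.07 (adjusted p = 0.815).

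Crot moves shortened chains onto carnitine for export from the peroxisome; its gene lies at chr5:8966033-8997324 on the reverse strand. Male livers ranged from 497 to 785 CPM in WT (median 689) and from 602 to 939 CPM in SIRT6-tg (median 697). The medians were close, and 2 SIRT6-tg values lay above the WT range. Female livers ranged from 649 to 1388 CPM in WT (median 936) and from 858 to 1543 CPM in SIRT6-tg (median 1176), where again 2 SIRT6-tg values exceeded all WT values. Expressed as a log2 fold change, the difference was 0.18 in males (95% interval −0.12 to 0.49) and 0.33 in females (SE 0.15, edgeR adjusted p = 0.839). It was the member with the lowest male value, and 1 of 2, with Decr2, in which the female value was the higher, a difference that was not called for either.

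Decr2 reduces the double bonds that unsaturated chains leave behind; its gene lies at chr17:26081208-26090337 on the reverse strand. Male WT livers ranged from 119 to 265 CPM (median 193) and male SIRT6-tg livers from 190.1 to 267 CPM (median 236). A single SIRT6-tg value lay above the WT range, and WT replicate 6 was the lowest library. Female WT livers ranged from 200.4 to 297 CPM (median 259) and female SIRT6-tg livers from 275 to 378 CPM (median 304), with 4 of the 7 above all WT values. In edgeR the log2 fold change came to 0.21 in males (95% interval −0.03 to 0.46) and 0.28 in females (SE 0.12, edgeR adjusted p = 0.784).

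**Figure D4:**
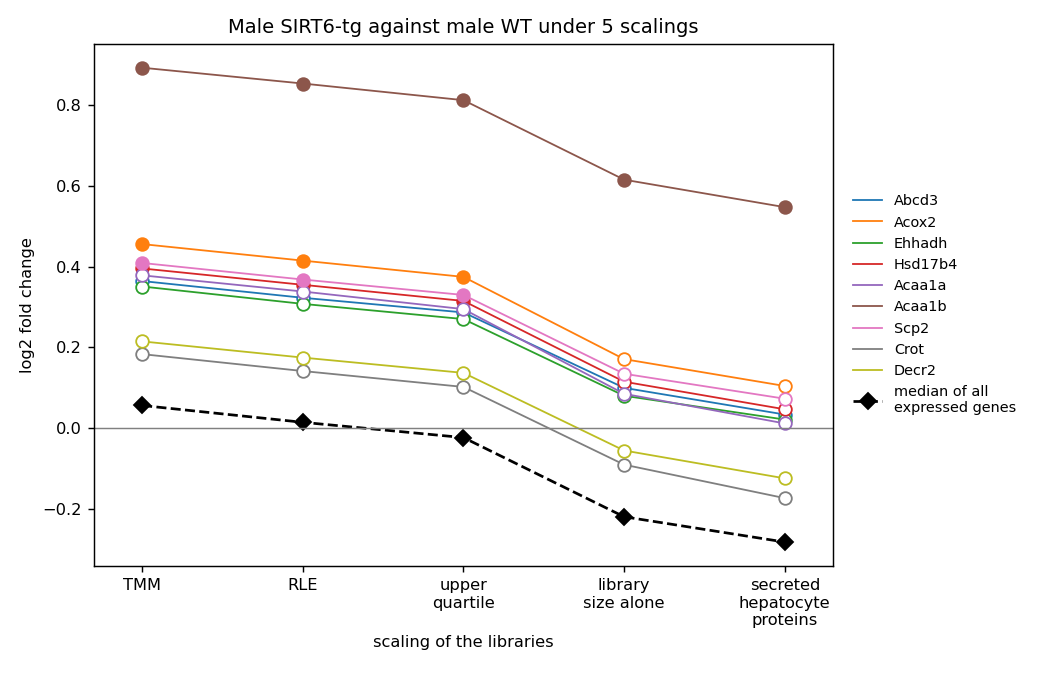
Log2 fold change of male SIRT6-tg against male WT for the 9 genes under 5 scalings of the libraries, with filled points for an adjusted p under 0.05 and black diamonds for the median of all expressed genes. All lines fall together from left to right, the median from 0.06 to −0.28, and Acaa1b stays filled throughout.

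The sexes were compared within each genotype to place these differences. In WT livers 1 of the 9 was higher in males (6.65% of all expressed genes were) and 3 were lower (5.71% were). In the same comparison all 10 T cell markers were higher in males and 6 of 15 secreted hepatocyte proteins lower, and their part in it was not tested. Scp2 was 1.88-fold higher in males than in females (log2 fold change 0.91, SE 0.12, edgeR adjusted p = 1.59e-06), and the groups did not overlap. Ehhadh was lower in males by 0.88 on the log2 scale (SE 0.16, edgeR adjusted p = 3.19e-04), Crot by 0.56 (SE 0.15, adjusted p = 0.0129) and Decr2 by 0.36 (SE 0.12, adjusted p = 0.0417), each with overlapping ranges. The other 5 were not called, and their 95% intervals ran from −0.41 for Abcd3 to 0.55 for Acaa1a. Without female WT replicate 5, the highest of its group for 7 of the 9 genes, Crot (adjusted p = 0.0583) and Decr2 were no longer called. Decr2 stayed called in 13 of 28 fits that left out 1 library.

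Between the SIRT6-tg groups 4 were higher in males (12.9% of all expressed genes were) and 3 lower (10.2% were). Scp2 was 2.49-fold higher (log2 fold change 1.31, SE 0.12, edgeR adjusted p = 9.26e-10). Acaa1a and Acaa1b were each higher by 0.64 on the log2 scale (adjusted p = 0.00148 and 0.00378 in edgeR) and Hsd17b4 by 0.29 (SE 0.08, adjusted p = 0.0136). Ehhadh was lower by 0.79 (adjusted p = 6.78e-04), Crot by 0.70 (adjusted p = 0.00116) and Decr2 by 0.43 (adjusted p = 0.00972) in edgeR. The 7 males and the 7 females did not overlap for Scp2, Hsd17b4, Acaa1b, Ehhadh and Decr2. The share of all expressed genes without such overlap was not computed, in this or in the other comparisons. A lack of overlap is therefore not shown to be particular to these genes. Both sex comparisons share libraries with the genotype comparisons, so they are not independent of them. Sirt6 was at 198 to 358 CPM in male and 16.4 to 50.2 CPM in female SIRT6-tg livers. Sex and Sirt6 level therefore cannot be told apart between the SIRT6-tg groups.

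**Figure D5:**
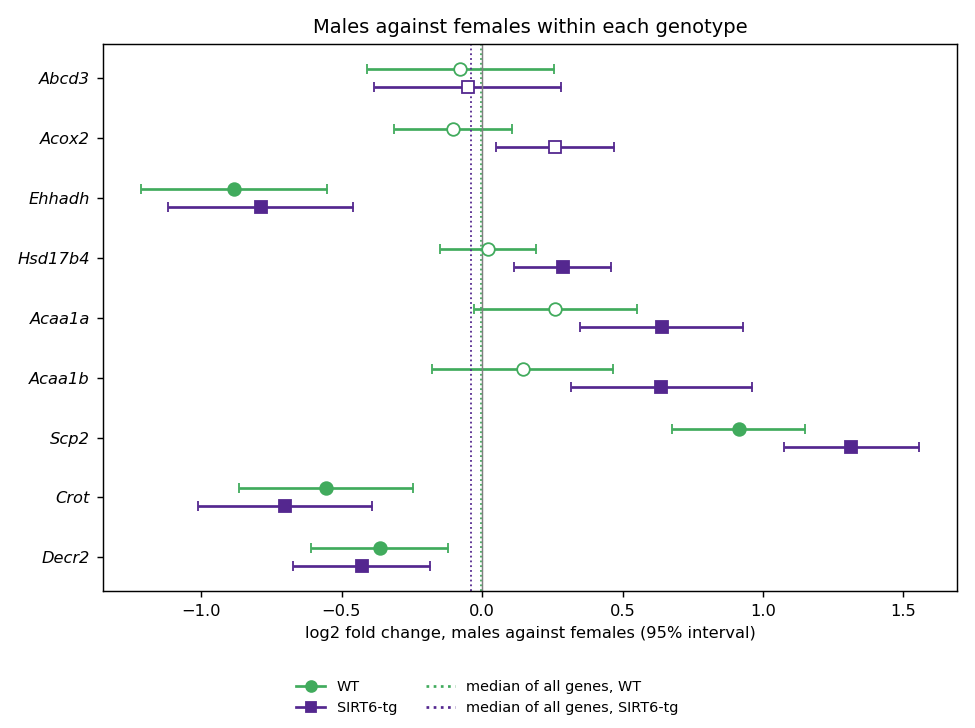
Log2 fold change of males against females with its 95% interval for the 9 genes in WT (circles) and SIRT6-tg mice (squares); filled symbols passed an adjusted p of 0.05, and dotted lines mark the median of all expressed genes. Scp2 lies farthest right in both genotypes, at 0.91 and 1.31, and Ehhadh farthest left.

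The 9 genes did not vary as 1 block between mice of a group. After centring within groups, 29 of the 36 pairs had a Pearson's r above 0 over 28 libraries, with a median of 0.45. The closest pair was Abcd3 and Decr2 (r = 0.87) and the most opposed Acox2 and Acaa1a (r = −0.36). Against the mean of the other 8, Hsd17b4 (r = 0.81) and Decr2 (r = 0.79) were closest, while Acox2 (r = 0.08) and Acaa1a (r = −0.10) did not follow. Among other expressed genes, those with the highest r with the mean of the 9 were Etfdh (r = 0.93, Spearman's rho = 0.90), Lonp2 (0.85 and 0.75), Acad11 (0.83 and 0.84), Gm4952 (0.80 and 0.73) and Sec14l2 (0.79 and 0.68). These values describe libraries that share a scaling, and depth was not removed from them.

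Other genes of the pathway were counted from lists. For comparison, 9.68% of all expressed genes were called higher and 11.0% lower in male SIRT6-tg against male WT livers. Of 26 further peroxisomal fatty acid genes, 25 were tested, and 11 rose and 0 fell in male SIRT6-tg livers (median log2 fold change 0.40). By adjusted p, Ech1, an isomerase of dienoyl-CoA, led the list, rising by 0.67 (SE 0.11, edgeR adjusted p = 5.13e-05). Hacl1, the lyase of α-oxidation, rose by 0.90 (adjusted p = 1.09e-04 in edgeR), the acyl-CoA synthetase Slc27a2 by 0.57 (adjusted p = 3.28e-04) and Baat, which conjugates bile acids, by 0.41 (adjusted p = 5.26e-04). With library size alone 4 of the 25 were higher, and Baat was at 0.13 (adjusted p = 0.313 in edgeR). With hepatocyte scaling 2 were higher, Ech1 and Hacl1, while Slc27a2 was at 0.22 (adjusted p = 0.312) and Baat at 0.05 (adjusted p = 0.818) in edgeR.

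Among 16 peroxins, which build the organelle, 12 rose in males and 0 fell (median 0.36). Pex5, the import receptor for most matrix enzymes, rose by 0.35 (SE 0.08, edgeR adjusted p = 0.00118) and Pex3, a membrane protein of biogenesis, by 0.31 (SE 0.08, adjusted p = 0.00672). Their count fell to 2 with upper-quartile scaling and to 0 with library size alone and with hepatocyte scaling, where Pex3 turned to −0.05. Pex5 was also the 1 peroxin whose genotype effect differed between the sexes (0.42, SE 0.11, edgeR adjusted p = 0.0193), a call that was lost with library size alone and with hepatocyte scaling, where 0 of the 16 were called.

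Of 17 mitochondrial β-oxidation genes, 15 rose in males and 0 fell (median 0.46). Cpt2, which returns chains from carnitine to CoA, rose by 0.52 (SE 0.09, edgeR adjusted p = 9.67e-05) and the very long chain dehydrogenase Acadvl by 0.48 (SE 0.09, adjusted p = 2.06e-04). Acadvl was also the 1 gene of this list with a different genotype effect in the sexes (0.43, SE 0.13, edgeR adjusted p = 0.0436), and this call was lost with RLE, upper-quartile, library size and hepatocyte scaling. The count of male rises was 2 with library size alone and 1 with hepatocyte scaling. Acadvl was then at 0.21 (adjusted p = 0.133) and 0.14 (adjusted p = 0.603), and Cpt2 at 0.24 (adjusted p = 0.0423) and 0.16 (adjusted p = 0.449), in edgeR. In females 0 genes of these lists were called in edgeR. An unadjusted p under 0.05 was found there for 5 of 25, 2 of 16 and 7 of 17, against 5.62% of all expressed genes.

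Of 5 regulators 0 were called in either sex in edgeR, and 1 in males and 0 in females had an unadjusted p under 0.05. Nr1h4 (FXR, the bile acid receptor) had a male log2 fold change of 0.28 (SE 0.10, edgeR adjusted p = 0.0544) and Rxra, the partner of PPARα, 0.18 (SE 0.10, adjusted p = 0.229). Ppara ranged from 67.7 to 144 CPM in male WT and from 99.3 to 159 CPM in male SIRT6-tg livers, with a log2 fold change of 0.38 (SE 0.22, edgeR adjusted p = 0.237). Its female value was 0.12 in edgeR (SE 0.22, unadjusted p = 0.594).

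Markers of other cells moved with these comparisons. All 10 T cell and all 12 macrophage markers fell in male SIRT6-tg livers, under each of 5 scalings. Of 7 B cell markers 5 fell with TMM. T cell markers summed to 17.1 to 50.4 CPM in male WT and 5.14 to 8.09 CPM in male SIRT6-tg livers, and macrophage markers to 561 to 1590 and 388 to 618 CPM. Of 11 stellate, endothelial and duct markers 4 fell, and of 8 markers of pancreas, adipose tissue and blood 1 fell. Secreted hepatocyte proteins rose for 8 of 15 with TMM, for 6 with RLE and for 3 with upper-quartile scaling, while with library size alone 0 rose and 1 fell. With TMM their sum went from 126608 to 161601 CPM in male WT to 149910 to 209953 CPM in male SIRT6-tg livers. In females 0 markers of these lists were called in edgeR, but all 10 T cell markers (median log2 fold change −0.52, 3 with an unadjusted p under 0.05) and all 12 macrophage markers (median −0.29, 2 with an unadjusted p under 0.05) lay below 0 in SIRT6-tg livers. Between the WT groups all 10 T cell markers (median 1.31) and 3 of 12 macrophage markers were higher in males, and 6 of 15 secreted hepatocyte proteins were lower. Between the SIRT6-tg groups 1 T cell and 5 macrophage markers were lower in males, and of the hepatocyte proteins 3 were higher and 1 lower. No listed marker was at 0 in all libraries of a group, and the part of these shifts in the changes of the 9 genes was not tested.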

How the data were processed

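RNA-seq was analysed from 28 mouse livers, 7 in each group of sex and genotype. Per the labels, libraries were made with the NEBNext Ultra kit. The authors aligned reads with STAR 2.5.0a to mm10, counted uniquely mapped reads per Gencode gene with HTSeq-count, and deposited raw counts without normalization. The strand setting is not stated. No column was left unmapped (0).

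Genes with a mean normalised count of 0.5 or more were tested with edgeR 4.0.16 (R 4.3.3): TMM, quasi-likelihood F-test with robust estimation, all 4 groups in 1 fit, no covariates, Benjamini-Hochberg adjustment over 21583 genes, threshold 0.05. DESeq2 1.42.0, other scalings and filters, separate fits for each sex, a block for the replicate number, summed thiolases and leaving out each library served as alternatives. RPKM used the principal transcript of Gencode vM21 (GRCm38), a length chosen after levels were seen. Identifiers matched a symbol for 49326 of 49585 features. Intervals are 95%. Promoters are from RefSeq GRCm38.p6. The test was checked on simulated data in which a small share of genes changed, in both directions. That check does not bear on how the male calls depend on the scaling.

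All 9 genes were named, with Sirt6, Ppara, the 4 further peroxisomal genes and the 2 peroxins, mitochondrial genes and regulators with the lowest male adjusted p, and the 5 genes most correlated with the mean of the 9; 1 further gene that the rule names is not reported here. The genes and lists were chosen with earlier results of these data known. P-values weigh each difference between groups against the spread between these mice.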

Additional observations from a re-analysis of the deposited data

Results flagged for a closer look

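Ehhadh in male SIRT6-tg replicate 7 stood apart from its group. It had 213 CPM, while the nearest of the other 6 libraries had 310.4 and the highest 382 CPM, so the gap made up 0.576 of the range, just past the 95% critical value of Dixon's test for 7 samples. This was 1 such value among 36 checks (9 genes in 4 groups), where chance gives about 1 in 20. Male SIRT6-tg replicate 7 was also the library of its group that correlated least with the mean of the others (r = 0.986 on log2 CPM). It was the lowest of its group for 4 of the 9 genes, Ehhadh among them, and the highest for Acox2 and Acaa1a.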

How the results depend on the processing

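Counts of called members kept within 1.5 times of the values above in all but 3 cases. In male SIRT6-tg against WT the count was 4 to 5 when 1 library was left out. With library size alone and with hepatocyte scaling the count was 1 (Acaa1b), where 210 and 119 of 21583 genes were called higher. In male WT against female WT it was 2 without female WT replicate 5 (2 to 4 over all fits that left out 1 library). It was 0 to 0 for the female comparison and for the difference between the sexes, and 7 to 8 between the SIRT6-tg groups. Replicate numbers showed no visible pairing of the mice: same-numbered libraries of 2 groups correlated over 0.1 in only 1 to 3 of 7 pairs. With the replicate number as a block the counts were 4, 0, 0, 4 and 7, the same as without it. A pairing by litter or day could not be tested, as neither is given.

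Over all expressed genes, the count in females was 6, against 44 with DESeq2, 2 with each sex fitted separately and 3 to 16 without 1 library. The difference between the sexes was called for 1089 genes and for 2273 with hepatocyte scaling (1837 lower and 26 higher with library size alone), and male WT against female WT for 2669 and 4554. The cause was not tested.

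Values that changed sign were uncalled and reached −0.42. For the female Acaa1a difference they were −0.000120 (RLE), −0.0112 (upper quartile), −0.00772 (filterByExpr), −0.000140 (DESeq2) and −0.0193 (replicate block), and for Scp2 −0.00103 (upper quartile). For Abcd3 the difference between the sexes was −0.0179 (RLE), −0.0410 (upper quartile), −0.0180 (DESeq2), −0.25 (library size alone) and −0.42 (hepatocyte scaling). With library size alone, male Crot was −0.0900 and Decr2 −0.0550, the difference between the sexes −0.18 for Ehhadh and −0.0225 for Hsd17b4, and WT males against females 0.10 for Abcd3 and 0.0799 for Acox2. With hepatocyte scaling, male Crot was −0.17 and Decr2 −0.12, the difference between the sexes −0.0931 for Acox2, −0.32 for Ehhadh, −0.20 for Hsd17b4, −0.11 for Acaa1a and −0.0436 for Scp2, and WT males against females 0.17 for Abcd3 and 0.13 for Acox2. Leaving out 1 library gave −0.11 to 0.0714 for female Acaa1a, −0.0425 to 0.0850 for female Scp2, −0.0866 to 0.12 for Abcd3 and −0.0396 to 0.20 for Ehhadh in the difference between the sexes, −0.17 to 0.0354 for Abcd3 and −0.0117 to 0.0667 for Hsd17b4 in WT males against females, and −0.0992 to 0.0238 for Abcd3 in SIRT6-tg males against females.

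Calls of single members in the sex comparisons also moved. Hsd17b4 between the SIRT6-tg groups was lost with upper-quartile scaling, library size alone and hepatocyte scaling, and Acaa1b there with hepatocyte scaling. Crot and Decr2 between the WT groups were lost with library size alone and hepatocyte scaling, where Acaa1a was called, and Decr2 also without a filter on low counts. Depth as a limit was not tested.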

Other observations

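Some of the further peroxisomal genes differed more between the sexes than any of the 9 did. They were picked after their values were seen. Nudt7, a hydrolase of CoA esters, ranged from 406 to 625 CPM in male WT and from 110.1 to 233 CPM in female WT livers (log2 fold change 1.75, SE 0.16, edgeR adjusted p = 2.23e-09). Abcd2, an importer related to Abcd3, ranged from 13.6 to 71.7 CPM in male WT and from 90.3 to 150.4 CPM in female WT livers and was lower in males by 1.69 on the log2 scale (SE 0.23, edgeR adjusted p = 7.53e-06). Hacl1 was lower in male WT livers by 1.32 (SE 0.16, edgeR adjusted p = 8.35e-07), with 152 to 227 CPM against 325 to 544 CPM. Eci3, an isomerase, was at 0 to 0.126 CPM in male WT and at 1.07 to 6.60 CPM in female WT livers.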
